A study of Mus musculus with 9 samples.

Results

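The iron handling genes examined here are 7 genes that export, import, carry, store or release iron: Slc40a1, Tfrc, Fth1, Hmox1, Cp, Trf and Slc11a2. Every probe set whose single annotated gene symbol is one of these was taken, which gave 21 of the 22690 probe sets on the array. They cover 6 of the 7 genes, of 12394 genes with a probe set of their own, because the only Trf probe set is also annotated to a second gene, Srprb, and Trf is therefore given no value. Of the 21 probe sets, 3 are array control probe sets for Tfrc, kept out of the tests and shown as values, and 17 of the other 18 passed the filter on dim probe sets. Slc40a1 led to the choice of this group, because 1 of its probe sets ranked 4 by p among the 6403 probe sets with 1 symbol that were lower in HO than in WT. Its differences are therefore given as a description with no test, including those against HE, which share arrays with that contrast.

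Lung total RNA came from adult FVB/N mice on Affymetrix mouse MOE430A arrays, 3 arrays per group. WT mice carried no transgene. HE mice carried 1 allele and HO mice 2 alleles of a human CFTR cDNA under the Sftpc promoter, which restricts expression to respiratory epithelial cells. The labels write the native Cftr gene as intact (mCftr+|+) in all groups, apart from WT replicate 3, for which no genotype is written. One array has conflicting labels: the title and genotype field of HO replicate 2 give 2 alleles, and its description writes 1. Printed differences of a member between HO and WT that moved by over 1.5 times or turned in sign when this array was left out are given both ways. The labels do not say that the triplicates were separate animals, so p-values measure only the spread between these samples. Whole lung was measured, so fewer cells of a type and less RNA per cell cannot be told apart.

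Iron reaches most cells bound to transferrin (Trf), which is taken up by the transferrin receptor (Tfrc), and crosses membranes as ferrous iron through the importer DMT1 (Slc11a2). Surplus iron is held in ferritin (Fth1 encodes the heavy chain) or leaves through ferroportin (Slc40a1), the known iron exporter of mammalian cells, helped by the ferroxidase ceruloplasmin (Cp). Haem oxygenase 1 (Hmox1) frees iron from haem. In the lung, alveolar macrophages and epithelium are known to take up and store iron from inhaled particles and red cells. Iron regulatory proteins act on several of these messages after transcription, so array signals of mRNA do not show the protein levels.

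The arrays were alike, with medians between 697.1 and 741.75, and lung identity was clear. The lowest intensity on any array was 50229.3 for Sftpc of alveolar type II cells, 44202.2 for Scgb1a1 of club cells and 20202.8 for Ager of alveolar type I cells. No probe set of the 13576 tested differed between groups at an adjusted p under 0.05 in limma (0% called in each of the 3 comparisons). At an unadjusted p under 0.05 there were 610 in HO against WT, 422 in HE against WT and 348 in HO against HE. For a typical probe set the 95% interval reached 0.35 to either side on the log2 scale.

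Ferroportin mRNA was lower in HO lungs than in WT by the probe set through which it was chosen, and HE lay between them. On 1417061_at, Slc40a1 had intensities of 928, 1007.4 and 972.6 in the WT replicates. The HE replicates had 709.1, 759.3 and 889.1, and the HO replicates 640.5, 463.1 and 666.1. The 3 groups did not overlap: every HE array was below every WT array, and every HO array was below every HE array. The HO geometric mean was 0.601 times WT, which is -0.73 ± 0.16 on the log2 scale (SE, 3 arrays per group), and the HE one was 0.807 times WT, which is -0.31 ± 0.16. HO minus HE was -0.43 ± 0.16. HO replicate 2, with the conflicting label, was the lowest of all 9 arrays, and without it HO minus WT was -0.57 and HO minus HE -0.26. With that array counted as HE instead, HE minus WT was -0.50 and HO minus HE -0.07.

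The second Slc40a1 probe set showed a smaller difference. On 1448566_at the WT replicates had 901.6, 1200.3 and 799.2, the HE replicates 843.9, 990.1 and 1111.4, and the HO replicates 947, 616.8 and 849.9. All groups overlapped on this probe set, and only HO replicate 2 lay below the WT arrays. HO minus WT was -0.27 ± 0.20 (SE) on the log2 scale and HE minus WT 0.03 ± 0.20. HO minus WT on this probe set was -0.09 without HO replicate 2 and -0.10 without WT replicate 2. HO minus HE was -0.30 ± 0.20, -0.12 without HO replicate 2 and 0.04 with that array counted as HE. HE minus WT also changed sign in 4 of 20 alternatives, so its direction was not settled on this probe set.

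The 2 Slc40a1 probe sets correlated at r = 0.71 over the 9 arrays (exact permutation p = 0.034, two-sided; adjusted p = 0.125 over 41 pairs of probe sets of a member gene). Spearman's rho was 0.45 (exact permutation p = 0.23, adjusted p = 0.41). Without the 2 arrays farthest from the median of 1417061_at, r was 0.03, so the relation rests on those arrays. Removing the means of the replicate numbers left r at 0.73. Because 1417061_at was chosen for its low HO arrays, these correlations are a description and no support.

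**Figure D1:**
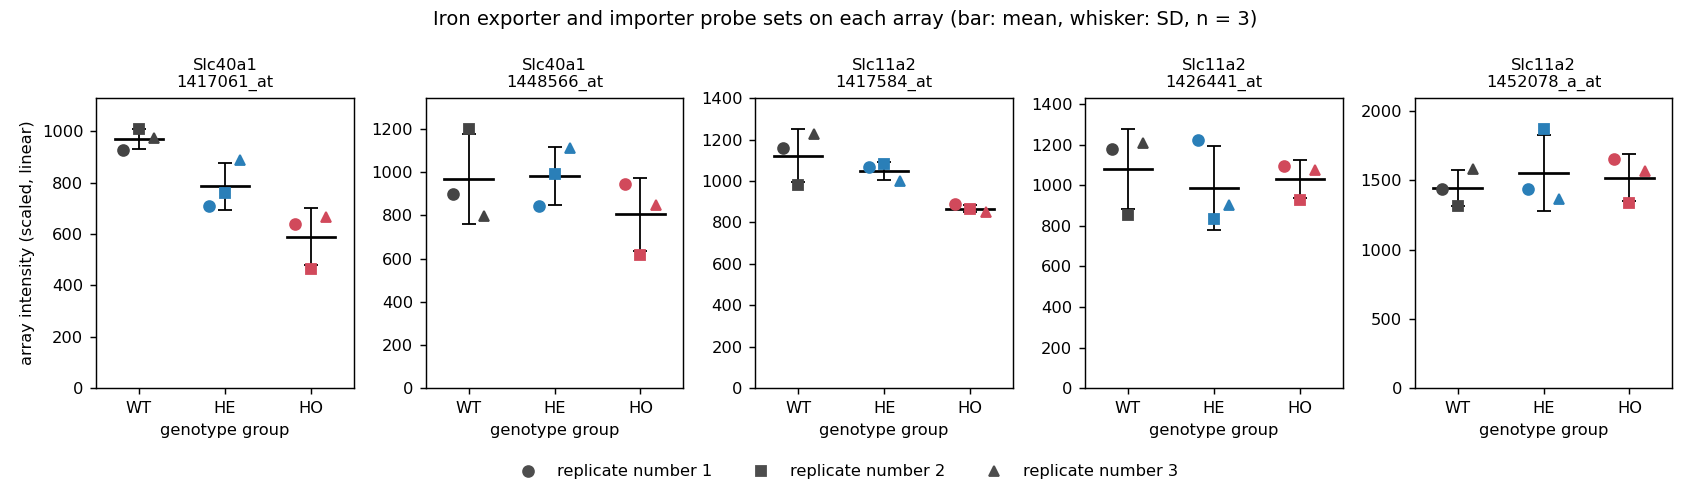
Linear array intensity of the Slc40a1 and Slc11a2 probe sets on each of the 9 arrays, by genotype; marker shapes are replicate numbers, bars are means and whiskers SD (n = 3). On Slc40a1 1417061_at all HO arrays (463.1 to 666.1) lie below all HE arrays (709.1 to 889.1) and all WT arrays (928 to 1007.4), while on 1448566_at the groups overlap.

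Alveolar macrophages are known for high ferroportin. Of 15 listed alveolar macrophage markers, 10 were on the array and 8 passed the filter, none was at the floor on all arrays, and their summed intensity ran from 47148.6 to 54306.4 in WT, 47139 to 55343.7 in HE and 47406.6 to 56711.3 in HO. Their median log2 difference was -0.03 in HO against WT, with 4 of 8 higher. Monocyte and interstitial macrophage markers had a median of 0.03, with 6 of 11 higher. Of 6 neutrophil markers tested, 6 were lower in HO than in WT (median -0.37) and 5 were higher in HE (median 0.42), with 0 in limma at an adjusted or at an unadjusted p under 0.05. The summed intensity of the 8 neutrophil markers on the array ran from 10656.5 to 46704.7 in WT, 11244.5 to 63397.7 in HE and 8890.9 to 24566.6 in HO, so the groups overlapped. The part of macrophage or neutrophil content in the Slc40a1 values was not tested. Signal of these markers from other cell types of the lung was not separated.

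The genes whose profile over the 9 arrays was most like Slc40a1 were taken with its probe set of highest mean signal, 1448566_at. They were Ppp1cc (r = 0.94), a catalytic subunit of protein phosphatase 1, and Ran (r = 0.93), the GTPase of nuclear transport. Next came the chromatin remodeller Smarca5 (r = 0.93), the urea transporter Slc14a2 (r = 0.93) and the potassium channel subunit Kcne2 (r = 0.92). These are the highest correlations among all tested probe sets with 1 symbol, over 9 arrays that share their groups and replicate numbers, and are given as a description.

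DMT1 mRNA gave no call in any comparison, and on 1 of its 3 probe sets the HO arrays stood apart from the others. On 1417584_at, Slc11a2 had 1160.1, 978.8 and 1227.7 in the WT replicates, 1067.4, 1082.3 and 1000 in the HE replicates and 887.8, 864 and 850.2 in the HO replicates. All HO arrays lay below all WT and all HE arrays, while WT and HE overlapped. The HO geometric mean was 0.776 times WT, a difference of -0.37 ± 0.13 (SE, n = 3 per group; unadjusted p = 0.0139), which did not pass over all probe sets in limma (adjusted p = 0.992). HO minus HE was -0.27 ± 0.13 (adjusted p = 1) and HE minus WT -0.09 ± 0.13. The difference from WT was -0.36 without HO replicate 2 and ran from -0.46 to -0.30 over the alternatives.

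The other Slc11a2 probe sets did not follow it. On 1426441_at the arrays ranged from 855.7 to 1210.2 in WT, 833.6 to 1224.9 in HE and 925.9 to 1096.8 in HO, and HO minus WT was -0.05 ± 0.18, or 0.02 without HO replicate 2. On 1452078_a_at they ranged from 1319 to 1582.2, 1362.7 to 1871.5 and 1334 to 1656.6, and HO minus WT was 0.07 ± 0.16, or 0.16 without that array. Groups overlapped on both. The 3 pairs of Slc11a2 probe sets correlated at r = 0.04 to 0.33 over the 9 arrays, and none passed (exact permutation, lowest adjusted p = 0.609; rho 0.17 to 0.30, lowest adjusted p = 0.716).

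Slc40a1 was chosen from HO against WT and is left out of these counts. Of 15 tested probe sets of the other members, 1 had arrays that did not overlap between HO and WT, Slc11a2 1417584_at, against 8.88% of all tested probe sets. The same 1 had an unadjusted p under 0.05, against 4.49% of all. In HE against WT 0 of the 15 did not overlap, against 7.7% of all, and 0 had an unadjusted p under 0.05 in limma, against 3.11%. In HO against HE 2 did not overlap, Slc11a2 1417584_at and Cp 1448735_at, against 6.66%, and 0 had an unadjusted p under 0.05, against 2.56%. None of the 15 passed the adjusted threshold in any comparison, as for all probe sets. The medians of the differences over all 17 tested member probe sets, Slc40a1 included, were -0.03, 0.00 and -0.11 in the 3 comparisons. Over all tested probe sets they were -0.00, -0.01 and 0.01. Slc40a1 was chosen for being lower in HO, so the member medians cannot show whether the other members shifted.

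**Figure D2:**
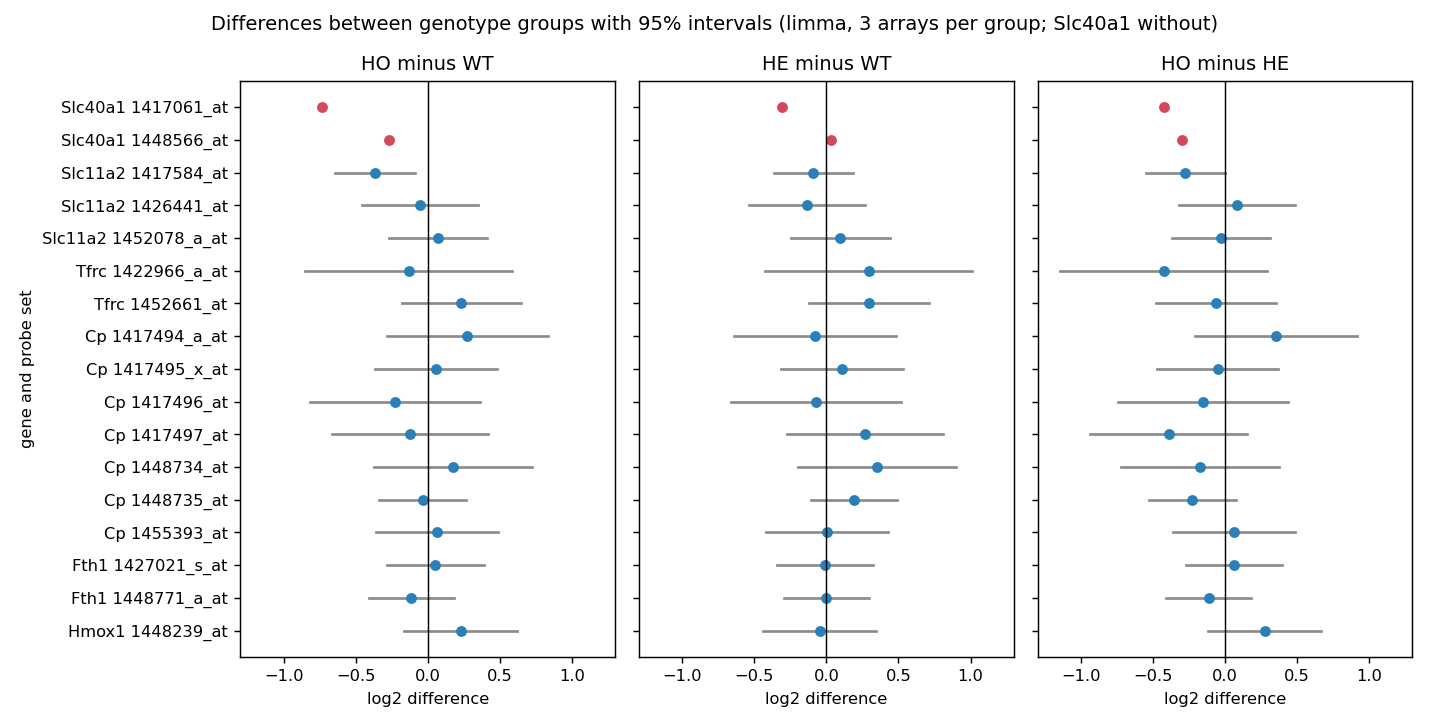
Log2 differences (points) with 95% intervals (lines, not drawn for Slc40a1) from limma for the 17 tested member probe sets in HO minus WT, HE minus WT and HO minus HE, 3 arrays per group. Slc40a1 is in red and the other genes in blue; in HO minus WT the interval of Slc11a2 1417584_at runs from -0.64 to -0.09 before adjustment, and no member passed after it.

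The transferrin receptor varied widely over the arrays, more with replicate number than with genotype. On 1422966_a_at, Tfrc had 791.6, 976.3 and 1206.4 in the WT replicates, 790.7, 1666 and 1305.6 in the HE replicates and 576.5, 887.5 and 1387.1 in the HO replicates. The 3 arrays of replicate number 1 were the lowest of all, below the 6 others, and the genotype groups overlapped. The highest array had 2.89 times the intensity of the lowest, and the SD over arrays, 0.48 on the log2 scale, was at the 97.3 percentile of all tested probe sets. Replicate number accounted for 65.9% of the variation and genotype for 15.2%, beside medians of 29.2% and 18.2% over all tested probe sets. For genotype, HO minus WT was -0.13 ± 0.33 (SE; limma adjusted p = 0.992) and HE minus WT 0.29 ± 0.33 (adjusted p = 1).

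The brightest Tfrc probe set, 1452661_at, had 3590.7, 4621.6 and 4097.4 in the WT replicates, 4413.9, 5479.4 and 5202 in the HE replicates and 4089.3, 6488.5 and 4168.5 in the HO replicates. Groups overlapped here as well. Within each replicate number the WT array was the lowest of the 3, by little in replicate number 3. This order did not hold on 1422966_a_at, where HO replicate 1 (576.5) lay below WT replicate 1 (791.6). The share of all probe sets with such an order was not counted. HE minus WT was 0.30 ± 0.19 (adjusted p = 1 in limma) and HO minus WT 0.23 ± 0.19 (adjusted p = 0.992), or 0.02 without HO replicate 2. The third Tfrc probe set, 1422967_a_at, fell under the filter, with intensities from 304.5 to 856.8.

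The array controls for Tfrc report on its 3', middle and 5' parts. The 3' control ran from 263.4 to 762.4 and followed 1422966_a_at over the 9 arrays (r = 0.95, exact permutation p = 0.000141, adjusted p = 0.00576 over the 41 pairs). Its rho was 0.95 (exact permutation p = 0.000353, adjusted p = 0.0145), and r was 0.91 without the 2 arrays farthest from the median and 0.86 with the replicate number means removed. The 5' control was dim at 61.7 to 219.8 and the middle control at 21.6 to 177.5. By contrast 1452661_at correlated with 1422966_a_at at r = 0.33 (exact permutation p = 0.391, adjusted p = 0.613; rho 0.45, adjusted p = 0.41).

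Tfrc lies on chromosome 16, and its RefSeq start region (GRCm38.p6) is shown because its signal was the most variable of the group and transferrin receptor is known to be induced by hypoxia-inducible factor. The 30 bases at chr16:32608882-32608911, plus strand, are given with the hypoxia response core ACGTG in capitals:
Tfrc: ctcggtaggtgtACGTGcggaaggaagtga
The core begins 2 bases before the more upstream of the 2 annotated starts and 228 bases before the other. ACGTG, read on both strands, occurs in 19.6% of all 32851 promoter windows of the same length, and this match is a description of the letters.

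**Figure D3:**
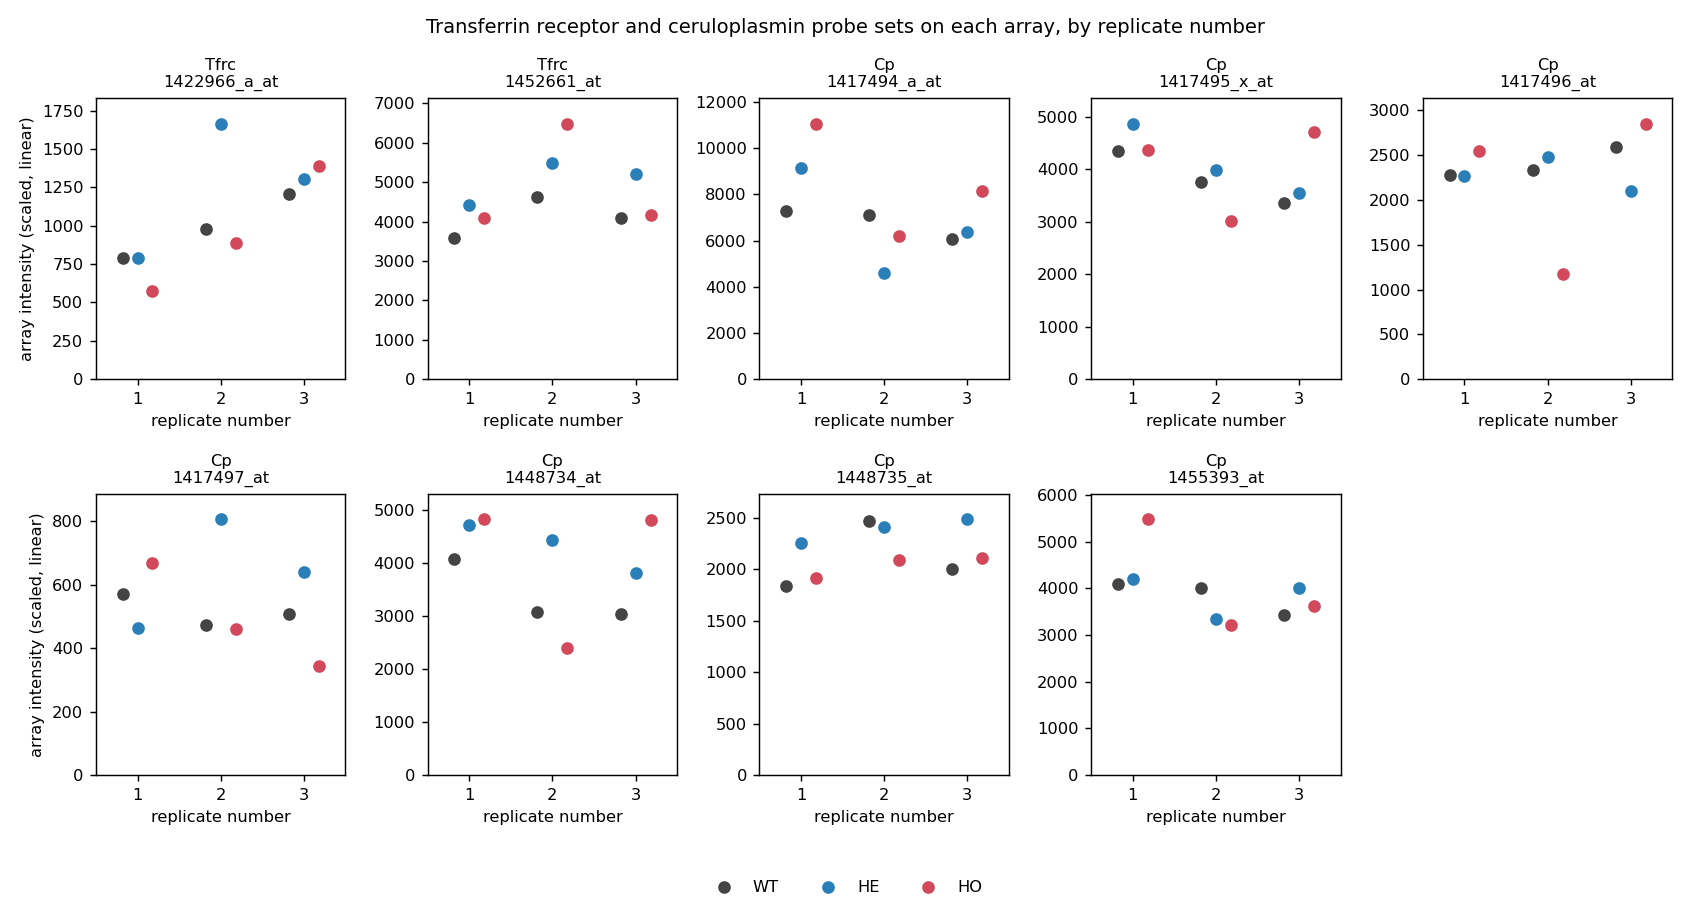
Linear array intensity of Tfrc and Cp probe sets on each array by replicate number, coloured by genotype. The panels hold the 2 tested Tfrc and the 7 Cp probe sets. On Tfrc 1422966_a_at the arrays of replicate number 1 (576.5 to 791.6) lie below the others (887.5 to 1666).

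Ceruloplasmin, the ferroxidase that works with ferroportin, had 7 probe sets that did not show a shared genotype difference. The most intense, 1417494_a_at, had 7292.5, 7114.3 and 6058.7 in the WT replicates, 9140.6, 4578.2 and 6382.4 in the HE replicates and 11066.3, 6178.2 and 8142.1 in the HO replicates. HE held both the second-highest and the lowest of the 9 arrays on this Cp probe set, so the groups overlapped. On the log2 scale HO differed from WT by 0.27 ± 0.26 (SE; limma adjusted p = 0.992) and HE by -0.08 ± 0.26. Without HO replicate 2 the HO difference was 0.48. Replicate number accounted for 54.9% of its variation and genotype for 18.8%.

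HO replicate 2 stood apart on several Cp probe sets. On 1417496_at it had 1176.8, where the other 8 arrays ran from 2093.4 to 2850.8. HO minus WT on this probe set was -0.23 ± 0.27, and 0.17 without that array, so the sign turned. It was also the lowest array on 1448734_at (2391.1, others 3047.1 to 4827.6) and on 1417495_x_at (3011, others 3365.7 to 4874.9). On 1448734_at HO minus WT was 0.18 ± 0.25 with HO replicate 2 and 0.51 without it.

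Over the 7 Cp probe sets, HO minus WT ran from -0.23 to 0.27, HE minus WT from -0.08 to 0.35 and HO minus HE from -0.39 to 0.35, with adjusted p of 0.992 or 1 in limma. Without HO replicate 2 the ranges were -0.10 to 0.51 in HO minus WT and -0.37 to 0.56 in HO minus HE. The 1 pair of Cp probe sets that passed, of 21, was 1417495_x_at with 1448734_at (r = 0.91, exact permutation p = 0.000741, adjusted p = 0.0152). Its rho was 0.90 (exact permutation p = 0.00203, adjusted p = 0.0277), and r was 0.83 without the 2 arrays farthest from the median. With the replicate number means removed, r was 0.87 and the call was lost (exact permutation, adjusted p = 0.0815). Among all 21 pairs r ran from -0.42 to 0.91 with a median of 0.23. On 1448735_at the HO arrays (1919.2 to 2109) lay below the HE arrays (2260.3 to 2486.1), and the WT arrays (1836.2 to 2469.3) spanned both. Of 8 liver serum protein markers on the array 0 passed the filter, with sums of 871.6 to 1068.3 per array, so the defining genes of the liver, the main source of plasma ceruloplasmin, were near background.

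Ferritin heavy chain was very bright on every array and showed no detectable difference. On 1427021_s_at, Fth1 had 55130.5, 49878.6 and 39292 in the WT replicates, 47353.6, 45811.5 and 48965.4 in the HE replicates and 55394.7, 49943 and 43610.1 in the HO replicates. The WT arrays held the lowest value and the second-highest. The log2 difference of HO from WT was 0.05 ± 0.15 (SE), with a 95% interval of -0.28 to 0.39, and HE minus WT -0.01 ± 0.15. On 1448771_a_at the arrays lay between 28985.8 and 36583.5, HO minus WT was -0.11 ± 0.13 and HE minus WT -0.00 ± 0.13. All these had adjusted p of 0.992 or 1 in limma, and whether signals this strong were saturated was not tested. The 2 probe sets correlated at r = 0.65 (exact permutation p = 0.0601, adjusted p = 0.154; rho 0.50, adjusted p = 0.405).

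The Fth1 start region on chromosome 19 is shown for its CCAAT box, an element known in ferritin heavy chain promoters, which here reads ATTGG on the strand of the gene. The 30 bases at chr19:9982627-9982656 (RefSeq, GRCm38.p6, plus strand) are given with that box in capitals:
Fth1: cccgctgcgctgATTGGccagcgctcgcct
The box begins 7 bases before an annotated start. ATTGG, read on both strands, occurs in 37.4% of the 32851 windows. The promoter table held windows for 3 of the 7 genes, Tfrc, Fth1 and Cp.

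Haem oxygenase 1 had 1 probe set. On 1448239_at, Hmox1 had 753.9, 558.4 and 772.3 in the WT replicates, 712.1, 771.1 and 537.7 in the HE replicates and 830.5, 883.8 and 713.3 in the HO replicates. The 2 highest arrays were HO, but HO replicate 3 lay within the WT range. On the log2 scale HO minus WT was 0.23 ± 0.18 (SE, n = 3 per group; limma adjusted p = 0.992), with a 95% interval of -0.16 to 0.62. It was 0.08 without WT replicate 2 and 0.16 without HO replicate 2. HO minus HE was 0.28 ± 0.18 (adjusted p = 1; 0.11 with HO replicate 2 counted as HE) and HE minus WT -0.05 ± 0.18, whose sign turned in 4 of 20 alternatives. A list around the transcription factor Nrf2, which also drives Hmox1, held Nrf2 itself (Nfe2l2), its inhibitor Keap1, the repressor Bach1 and 8 other targets. Of its 11 genes 7 were higher in HO than in WT (median 0.04), and of the 8 targets 4 were (median 0.00). The gene of lowest p was the growth inhibitor Osgin1, with 318.8, 810.4 and 683.5 in WT and 743.6, 1008.6 and 538.3 in HO. Its groups overlapped, and HO minus WT was 0.40 ± 0.32 (adjusted p = 0.992 in limma) but -0.01 without WT replicate 1 and 0.17 without HO replicate 2.

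The genes of nearest profile to the other members, by r over the 9 arrays, were Ap1ar for Tfrc (0.96, 1452661_at), Cbr2 for Fth1 (0.96, 1427021_s_at), Sharpin for Hmox1 (0.95), Mrps26 for Cp (0.95, 1417494_a_at) and Pias3 for Slc11a2 (0.96, 1452078_a_at). Cbr2 encodes a carbonyl reductase of club cells, a cell type whose markers had 6 of 8 tested genes higher in HO than in WT, with a median of 0.04. The levels of that list lay between -0.255 and 0.257 relative to the WT mean on the log2 scale.

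Around these members, 63 other iron and haem genes in 8 lists were measured above the filter. In HO against WT 34 were higher and 29 lower, with 1 in each direction at an unadjusted p under 0.05 (3.17%, beside 4.24% of all 8184 genes). In HE against WT 30 were higher and 33 lower, with 1 higher at that level (1.59%, beside 3.19%). In HO against HE 37 were higher and 26 lower, with 1 higher (1.59%, beside 2.28%). None passed over all genes in limma (0 in each comparison, lowest adjusted p = 0.992). The medians were 0.03, -0.04 and 0.05, beside 0.00, -0.01 and 0.015 over all genes.

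**Figure D4:**
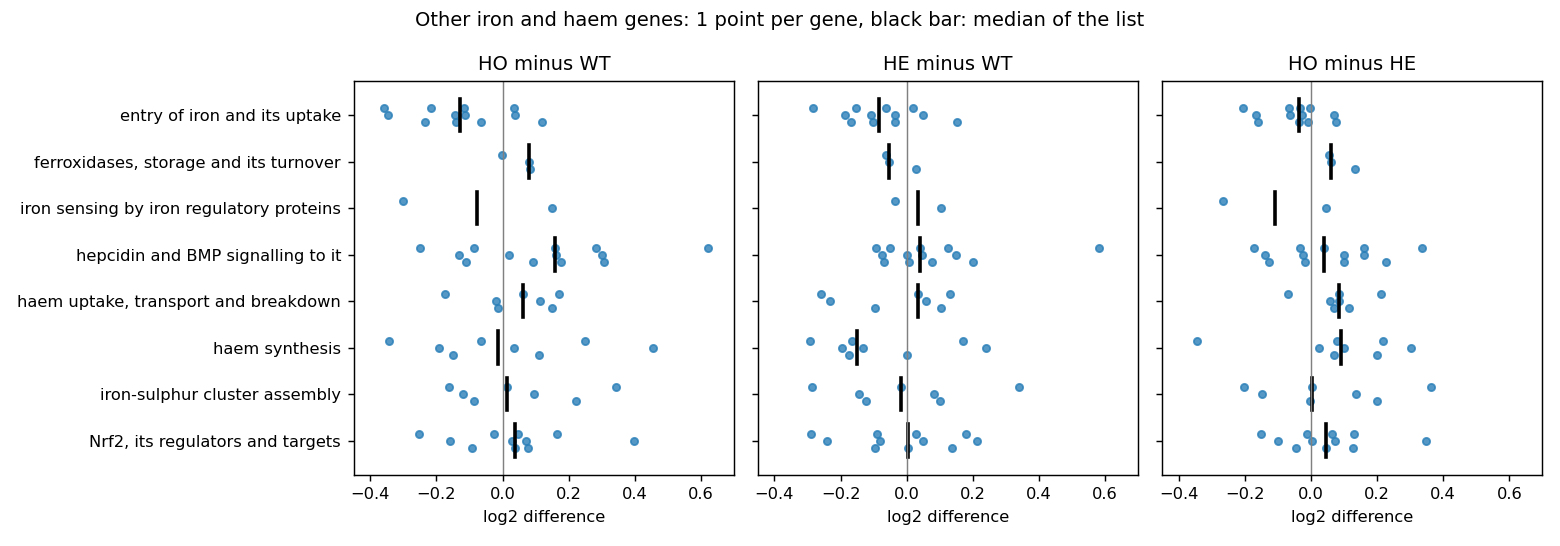
Log2 differences of 63 other iron and haem genes in 8 lists for the 3 comparisons, 1 point per gene, with the median of each list as a black bar. Medians of the 8 lists lie between -0.13 and 0.16 in HO minus WT and no gene passed after adjustment.

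Genes of iron entry and uptake had 3 of 12 higher and 9 lower in HO than in WT, with a median of -0.13. In HE 3 were higher and 9 lower, with a median of -0.08. Over all genes 50% were lower in HO and 53.9% in HE. Both comparisons use the same WT arrays, so the HE count is not a separate observation. Tfr2, the second transferrin receptor, which is known for iron sensing in the liver, was at the lower end. Its arrays had 1061.7, 935.2 and 876.4 in WT, 849.5, 765 and 972.8 in HE and 783, 658.6 and 800.6 in HO. HO lay below WT without overlap, while other genes of the lists and 8.88% of all tested probe sets also did not overlap. HO minus WT was -0.36 ± 0.14 (SE; unadjusted p = 0.0291, limma adjusted p = 0.992).

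Among ferroxidases, storage and ferritin turnover, 2 of 3 genes were higher in HO (median 0.08), and Pcbp1, an iron chaperone of ferritin, was at 0.08 ± 0.13. Of the 2 genes of iron sensing, Ireb2, which encodes iron regulatory protein 2, was at -0.30 ± 0.20 in HO against WT, with HO replicate 3 (2168.4) above all WT arrays (1634.8 to 2139.4). Without HO replicate 1 it was at -0.14, and without HO replicate 3 at -0.53. Hepcidin and genes of BMP signalling, which controls it, had 9 of 13 genes higher in HO (median 0.16) and 9 of 13 in HE (median 0.04). These 2 counts also share the WT arrays. Hepcidin itself (Hamp) was not among those higher, at -0.25 ± 0.22 in HO and -0.08 ± 0.22 in HE, and its second probe set was at -0.07 and 0.33. The count of genes higher in HO included Smad6 (0.16) and Smad7 (0.28), which inhibit BMP signalling, so it does not show the direction of signalling. Each gene counts at 1 probe set, and for some genes counted as higher another probe set was lower. Hamp, Smad6 and Smad7 were chosen after their values were seen. Bmp6, the BMP ligand known to report iron stores to hepcidin, had 5975.3, 6768.1 and 7083.9 in WT, 8537.6, 7015.5 and 7232.5 in HE and 8754.3, 8654.9 and 7054.1 in HO. HO minus WT for Bmp6 was 0.30 ± 0.14 (SE; unadjusted p = 0.0577, limma adjusted p = 0.992), and HO replicate 3 lay below WT replicate 3.

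Haem uptake, transport and breakdown had 4 of 7 genes higher in HO (median 0.06). The haem transporter Slc48a1 was at -0.18 ± 0.15 and, on a second probe set, at -0.28. The first of these was -0.07 without HO replicate 2 and -0.06 without WT replicate 1. Haem synthesis had 4 of 8 higher (median -0.02), and Ppox, an enzyme late in the pathway, was at -0.34 ± 0.17 in HO (-0.20 without HO replicate 1) and 0.00 ± 0.17 in HE. Erythroid markers, which include the haem synthesis gene Alas2, had 8 on the array and 2 above the filter. Both of these were higher in HO and in HE (medians 0.40 and 0.23), and the summed intensity of the 8 ran from 8322.1 to 15472.8 in WT, 9211.3 to 21806.6 in HE and 11797.8 to 20130.4 in HO. The part of blood content in the iron and haem genes was not tested.

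Iron-sulphur cluster assembly had 4 of 7 genes higher in HO, with a median of 0.01, and held the other genes at an unadjusted p under 0.05. Iscu, the assembly scaffold, had 8195, 7978.5 and 7797.5 in WT, 7388.5, 7008 and 7315.3 in HE and 9606.7, 9843.9 and 8541.4 in HO. HO lay above WT and HE lay below it, without overlap, beside 8.88% and 7.7% of all tested probe sets in those comparisons. HO exceeded HE by 0.36 ± 0.12 (SE; unadjusted p = 0.00935, limma adjusted p = 1), HO minus WT 0.22 ± 0.12 and HE minus WT -0.14 ± 0.12. Ciapin1, which encodes a cytosolic iron-sulphur assembly protein, was at 0.34 ± 0.14 in HO and 0.34 ± 0.14 in HE, but its other probe set gave 0.16 and -0.14 (limma adjusted p = 0.992 and 1).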

How the data were processed

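Per the labels, expression was read from 9 arrays. In the deposited file each probe set has a linear intensity on each array. The arrays share a mean of 1500 once 2% of values is trimmed from either end, so the authors' values were already scaled to a common level. The probe set summary software and the genome build are not given in the sources used here.

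Values under the 5th percentile (25.5) were set to it before taking log2. Left out were 64 control probe sets and the dimmest, below the 40th percentile of mean log2 (8.90). Group means of all 9 arrays were fitted with limma 3.58.1 in R 4.3.3 (lmFit, eBayes, Benjamini-Hochberg over 13576 probe sets). The fit and the permutation test were tested on simulated data. Symbols come from the platform's annotation table, of which probe sets with several symbols were not used. For lists, each gene counts at its probe set of highest mean. The number of arrays limits precision, and arrays give no count depth.

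The members, lists and naming rules were chosen with earlier results of these data known. All member probe sets are named. From each pathway list up to 4 genes at an unadjusted p under 0.05 in any comparison are named, or else the gene of lowest p in HO against WT. Hamp, Smad6 and Smad7 fall outside this rule. Alternatives were other scalings, filters, floors and eBayes settings, array weights, only the groups compared, the replicate number as a block, HO replicate 2 as HE, and each array left out. For arrays of the same replicate number, deviations from group means correlated at 0.193, 0.139 and 0.276 between HO and WT. They correlated at 0.301, 0.05 and 0.0425 between HE and WT, and at 0.156, 0.15 and 0.0277 between HO and HE. Arrays of the same replicate number also share a labelled replicate set across the genotypes. The main fit does not use this grouping, and the replicate block is an alternative that does. What the sets stand for was not tested.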

Additional observations from a re-analysis of the deposited data

How the results depend on the processing

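No member passed the adjusted threshold in any of 1080 fits of a member value under the 20 alternatives (lowest adjusted p = 0.477 in limma). The sign changed in 69 of the 1080. HO minus WT kept its sign in all 20 for Slc11a2 1417584_at. It also did for Slc40a1 1417061_at (-0.83 to -0.57) and Slc40a1 1448566_at (-0.40 to -0.09). Slc40a1 was chosen for being lower in HO by 1417061_at, so the kept sign there was close to fixed in advance and is no support. Leaving out HO replicate 2 moved values given above for Slc40a1, Cp, Tfrc and Osgin1, among others, and the cause was not tested.

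Over all probe sets, 2 passed without a filter in HE against WT and 2 in HO against HE. With 1 array left out it was 0 to 1 in HO against WT and 0 to 1 in HE against WT, the 1 without WT replicate 1 in both. At an unadjusted p under 0.05 the counts without a filter were 1225, 992 and 783 in HO against WT, HE against WT and HO against HE, and with the filter at the 60th percentile, which tests fewer probe sets, 378, 260 and 216. In HO against WT it was 369 with HO replicate 2 as HE. With 1 array left out there were 397 (HO replicate 2) to 1001 (HO replicate 3) in HO against WT and 265 to 661 (HO replicate 3) in HO against HE, where leaving out HE replicate 1 gave 527.

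Member probe sets at an unadjusted p under 0.05 in limma are counted here with Slc40a1, which was chosen by its p, so these counts are no support. Without Slc40a1 the main counts were 1, 0 and 0 of 15 in HO against WT, HE against WT and HO against HE. The shares over all tested probe sets were 4.49%, 3.11% and 2.56%. With Slc40a1 there were 2 in HO against WT, and 0 with the filter at the 60th percentile, which removes Slc40a1 and Slc11a2. With 1 array left out there were 1 (without WT replicate 3) to 3. In HE against WT there were 0, 1 with only the groups compared, 2 with HO replicate 2 as HE, and 0 to 2 with 1 array left out (2 without HO replicate 2, 1 without WT replicate 2 or HE replicate 3). In HO against HE there was 1, 0 at the 60th percentile, 2 without a filter, with array weights, with only the groups compared and with HO replicate 2 as HE, and 0 (without HE replicate 3 or HO replicate 2) to 4 (without HE replicate 1) with 1 array left out.

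With the replicate block no member call changed. The counts at an unadjusted p under 0.05 in limma were then 808, 591 and 474 in the order above. The main fit, without the block, had 610, 422 and 348. Of 1020 list medians 21 moved by over 1 SD, 17 with 1 array left out and 4 with HO replicate 2 as HE. Of 145 correlations, 1 lost its call with the replicate block, that of Cp 1417495_x_at and 1448734_at (r = 0.87, exact permutation, adjusted p = 0.0815).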
